A study of Mus musculus with 6 samples.

Results

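Ribosome biogenesis factors are the proteins that make, cut, modify and fold ribosomal RNA and assemble it with ribosomal proteins. The 43 genes described here are a list of nucleolar processing and assembly factors with 2 subunits of RNA polymerase I, chosen by name and found in the table by gene symbol. All 43 have a row among the 22095 gene rows of the deposited table. RNA was sequenced from CD8+ T cells of mice, which are the cytotoxic lymphocytes. Wild type naive CD8+ T cells had been purified from C57BL/6 spleens and stimulated in culture, with IL-2 in the medium, through CD3 and CD28 by antibodies. For 48 h they received either DMSO, the solvent, or 10 nM ponatinib, a drug that blocks BCR-ABL and other tyrosine kinases. Each group has 3 libraries and both groups were activated, so no resting cells are compared here. The labels do not say whether the replicates came from separate mice, so the p-values below measure the spread between these libraries, which may be technical.

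Ribosome production begins in the nucleolus, where RNA polymerase I transcribes the precursor of most ribosomal RNA. Guide RNAs with bound proteins, the box C/D and H/ACA snoRNPs, direct its chemical modification, and the small subunit processome folds and cuts the part that becomes the 40S subunit. Other factors, among them helicases and GTPases, build the 60S subunit and ready both for export. T cells enlarge their nucleoli and raise ribosome production when they leave the resting state, and the transcription factor MYC is known to bind many of these genes at the sequence CACGTG, the E-box.

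The E-box is shown first because it is a regulatory sequence known from many genes of this family. RefSeq promoter windows on GRCm38.p6, from 250 bases before to 50 bases after a start site, were matched by symbol for 38 of the 43 genes. No window was matched for Rrs1, Rrp12, Bop1, Fbl and Npm1. CACGTG reads the same on both strands, so 1 search covers both, and no other motif was searched. It was found in 10 of the 38 genes (26.3%), each with 1 match. The share was 18.2% (18 of 99) among other ribosome biogenesis factors, 12.5% (644 of 5166) among all genes kept for testing and 8.09% (2187 of 27025) among all genes with a window. Of the 10 matches, 8 lie after the annotated start site and 2 before it. The matches follow, 5′ to 3′ on the gene's strand, with the E-box in capitals and up to 12 bases on either side within the window.

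Grwd1: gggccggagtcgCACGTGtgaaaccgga
Utp20: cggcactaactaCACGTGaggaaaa
Tsr1: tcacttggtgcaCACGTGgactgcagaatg
Imp4: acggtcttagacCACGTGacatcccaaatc
Ltv1: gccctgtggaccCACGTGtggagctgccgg
Nop2: gtgtccctggatCACGTGtgttccggtgcc
Mybbp1a: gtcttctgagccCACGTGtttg
Wdr43: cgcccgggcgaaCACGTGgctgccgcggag
Pes1: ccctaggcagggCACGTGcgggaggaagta
Nle1: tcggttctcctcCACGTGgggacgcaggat

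The first 8 belong to genes that rose with ponatinib and the last 2, Pes1 and Nle1, to genes that were not called. In Grwd1 the stretch lies at chr7:45830740-45830767 on the minus strand, in Utp20 at chr10:88826765-88826789 on the minus strand and in Tsr1 at chr11:74898092-74898121 on the plus strand, in each case after the start site. In Imp4 it lies at chr1:34439696-34439725 on the plus strand, with the motif beginning 121 bases before the start. In Nop2 it lies at chr6:125131811-125131840 on the plus strand, beginning 60 bases before the start. Ltv1 has it at chr10:13193092-13193121 on the minus strand, Mybbp1a at chr11:72441355-72441376 on the plus strand and Wdr43 at chr17:71616220-71616249 on the plus strand. Pes1 has it at chr11:3963965-3963994 on the plus strand and Nle1 at chr11:82908355-82908384 on the minus strand. Of the members with a window, 8 of 25 called higher and 2 of 13 not called hold the motif. Among all kept genes called higher the share was 14.5% (226 of 1558), beside 12.5% of all kept genes. The split of the members was not tested. A match is a string of letters and not a measured binding site. Myc itself, whose protein binds this motif, stood at 261, 249.9 and 362 TPM in DMSO replicates 1 to 3 and at 196, 207 and 216 TPM in ponatinib replicates 1 to 3. All ponatinib libraries were below all DMSO libraries, and DMSO replicate 3 was the highest of the 6. The difference was -0.48 on the log2(TPM + 1) scale (SE 0.13, limma adjusted p = 0.0210). The call for Myc was lost without ponatinib replicate 1 (adjusted p = 0.0777), replicate 2 (0.0587) or replicate 3 (0.0549), and without a filter on low values (0.0618). Any part of the Myc level in the levels of the 43 genes was not tested.

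Most of the 43 genes were slightly higher in the ponatinib libraries, and none was lower past the threshold. With values in TPM, which are relative to gene length and to the library's total, 27 of the 43 rose, 0 fell and 16 were not called (limma, Benjamini-Hochberg adjusted p under 0.05 over the 6466 gene rows with a mean of at least 10 TPM). None of the 43 fell at an unadjusted p under 0.05 either. Among all 6466 genes, 29.9% were called higher and 9.88% lower, against 62.8% of the 43 called higher. The median log2 difference of the 43 was 0.23, beside 0.10 for all tested genes, and 34 of the 43 lay above that median. Differences are given on the log2(TPM + 1) scale, which understates those of low genes. The 27 genes rose by log2 0.18 (Wdr43) to 0.53 (Grwd1), ratios of mean TPM of 1.14 to 1.45, and none moved by 1 log2 unit. In 32 of the 43 genes all ponatinib libraries lay above all DMSO libraries, and in 0 genes all lay below. The same separation was found in 39.4% of all tested genes upward and 14% downward. The TPM of the 43 genes summed to 9665, 9584 and 9453 in DMSO replicates 1 to 3 (mean 9567) and to 9721, 10330 and 10796 in ponatinib replicates 1 to 3 (mean 10282). Without Npm1, the most abundant, they summed to 5454, 5556 and 5379 with DMSO and to 6034, 6426 and 6606 with ponatinib. In bulk RNA, a change in the make-up of the cells and a change of RNA per cell cannot be told apart.

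**Figure D1:**
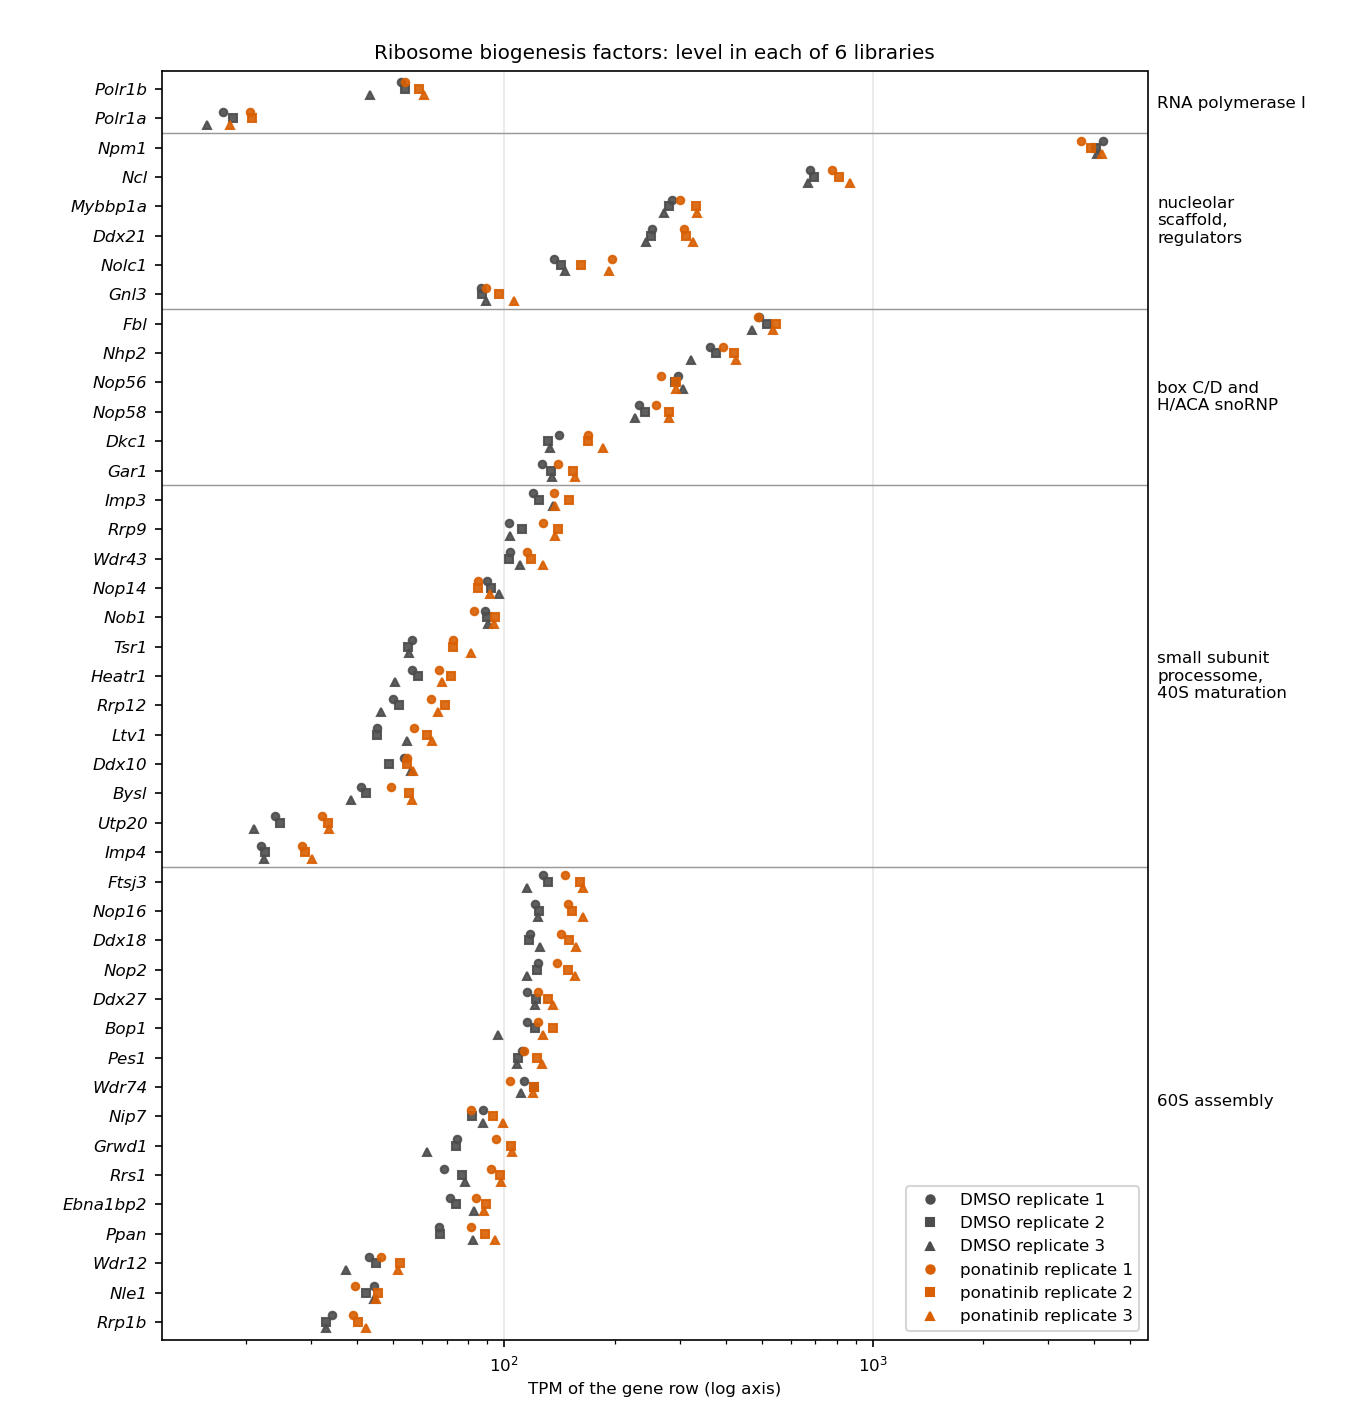
Level of each of the 43 genes in each library, in TPM on a log axis, grouped by role and ordered by mean level; grey symbols are the 3 DMSO and orange symbols the 3 ponatinib libraries, with the shape giving the replicate. Levels are those of gene rows, without separate transcript rows. They run from a mean of 18.4 TPM (Polr1a) to 4016 TPM (Npm1). Orange lies to the right of grey without overlap in 32 genes.

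How far the count stands apart depends on how the libraries are put on one scale. Scaling by medians of ratios, which sets the typical gene to no change, moved the median of all genes from 0.10 to 0.0011. Under it 14 of the 43 were higher and 2 lower, where 16.4% of all tested genes were higher and 18% lower. The 14 were Nolc1, Ddx21, Dkc1, Utp20, Imp4, Rrp9, Rrp12, Bysl, Ltv1, Tsr1, Nop16, Rrs1, Grwd1 and Ddx18. The 2 lower were Nop56 (log2 -0.17, adjusted p = 0.0263) and Nop14 (log2 -0.20, adjusted p = 0.0131). Of all genes called, 75.1% were higher on TPM and 47.6% on that scale, so directions of single genes below are given for TPM, and any call that is lost under the other scale is named. Quantile normalization, a further scale, gave 21 higher and 1 lower (Nop14), with 19.7% of all genes higher and 15.5% lower. The median of the 43 minus the median of all genes was 0.12 on TPM, 0.12 under medians of ratios and 0.14 under quantile normalization. It was 0.079 without DMSO replicate 3 and 0.18 without DMSO replicate 2. Of these 14, all but Ltv1 were called higher in each of the 16 other fits run, which changed 1 setting or left out 1 library, wherever the gene passed the minimum.

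**Figure D2:**
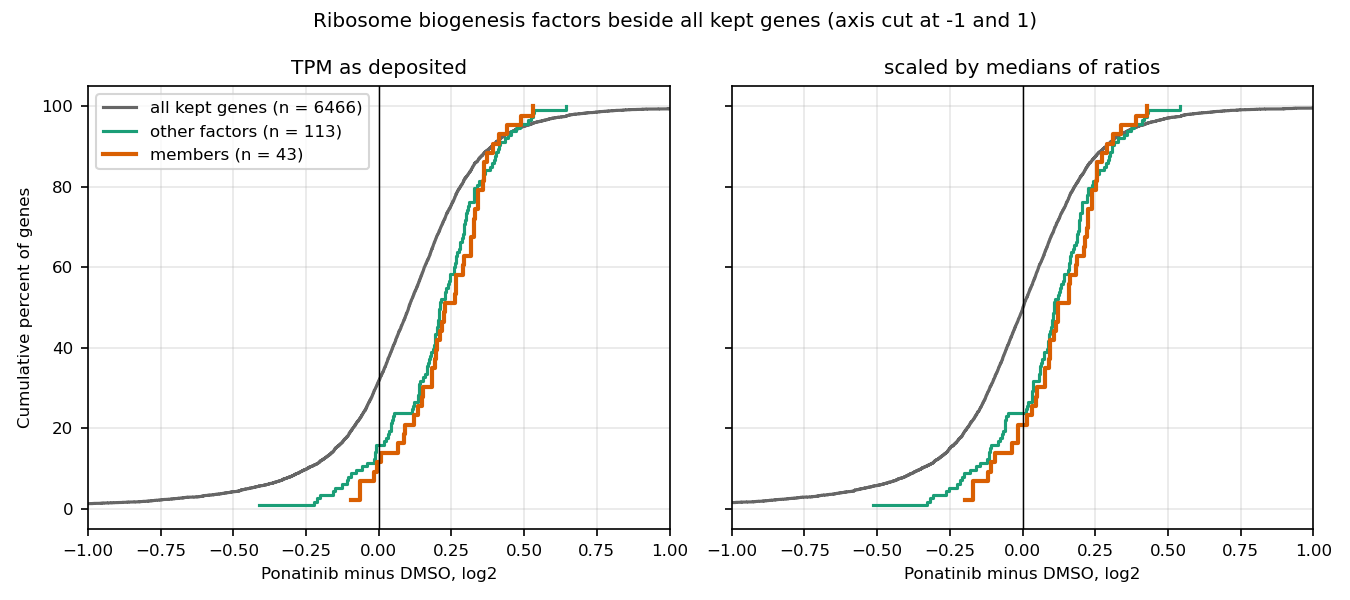
Cumulative percent of genes against the log2 difference, ponatinib minus DMSO, for the 43 members (orange), 113 other ribosome biogenesis factors (green) and all 6466 tested genes (grey), on TPM as deposited (left) and after scaling by medians of ratios (right). The orange line crosses its midpoint at 0.23 on the left and 0.12 on the right, and the grey line at 0.10 and 0.0011.

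The 6 libraries were not alike. Mitochondrial genes held 9.76%, 10.7% and 4.78% of TPM in DMSO replicates 1 to 3 and 7.16% to 8.19% in the ponatinib libraries. DMSO replicate 3 thus stood apart from its group. Without that library 28 of the 43 genes were higher, beside 27 with it, while the share of all tested genes called higher went from 29.9% to 42.7%. The median of the 43 minus that of all genes then fell from 0.12 to 0.079. The part of the mitochondrial share in the results was not tested. Read depth is unknown, since TPM do not keep it. Among ponatinib libraries, replicate 1 was the lowest in 39 of the 43 genes (90.7%), beside 50.9% of all tested genes. Taken from the mean of the DMSO libraries, the members' median log2 was 0.16, 0.26 and 0.28 in ponatinib replicates 1 to 3, and between -0.018 and 0.015 in the DMSO libraries. The median of all tested genes was 0.078, 0.10 and 0.13 in ponatinib replicates 1 to 3 and -0.042 to 0.065 in the DMSO libraries. Leaving out one library at a time gave 18 to 28 genes higher. There were 18 without ponatinib replicate 2 (18.5% of all genes tested in that fit), 18 without ponatinib replicate 3 (17.6%), 19 without DMSO replicate 1 (19.9%), 22 without DMSO replicate 2 (22.4%) and 28 without ponatinib replicate 1 (23.7%). Each of those fits called 0 members lower. Markers of CD8+ T cells (Cd3d, Cd3e, Cd3g, Cd2, Cd8a, Cd8b1) summed to 1714 to 1847 TPM with DMSO and 1803 to 2029 TPM with ponatinib. Within that list Cd8a (ratio of means 1.45), Cd8b1 (1.40) and Cd3e (1.28) were called higher and Cd2 (0.57) lower. The 3 markers of CD4 T cells summed to 4.03 to 8.25 TPM with DMSO and 12.4 to 16.01 TPM with ponatinib. The 6 of B cells summed to 7.20 to 13.3 and 16.9 to 18.9 TPM, and the 6 of myeloid cells to 0.965 to 1.14 and 4.82 to 6.82 TPM. The 4 of NK cells summed to 18.2 to 30.4 and 33.7 to 42.4 TPM, nearly all of it Eomes, which activated CD8+ T cells also make. Groups were apart with ponatinib higher for 2 of the 3 CD4, 3 of the 6 B cell, 3 of the 6 myeloid and 3 of the 4 NK cell markers. Of all tested genes 39.4% were apart upward, a share over rows of at least 10 TPM. All these markers but Cd79b and Eomes were under that minimum, so the share does not cover them. Foxp3 had a mean of 1.12 TPM with DMSO and 8.14 TPM with ponatinib, Cd4 of 1.58 and 4.70 TPM, Cd79b of 8.11 and 13.4 TPM, Lyz2 of 0.136 and 1.83 TPM and Fcer1g of 0.794 and 3.86 TPM. Zbtb7b went the other way, at 2.86 and 1.03 TPM. Cd14 stayed at or below 0.034 TPM, Adgre1 at or below 0.058 TPM and Ncr1 at or below 0.229 TPM in all libraries. In each of these 4 lists of other cells the ponatinib sums lay above the DMSO sums, and their part in the members' levels was not tested.

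RNA polymerase I, which starts the process, was represented by its 2 largest subunits, and neither was called. Polr1a, the catalytic subunit, stood at 17.3, 18.4 and 15.6 TPM in DMSO replicates 1 to 3 and at 20.4, 20.7 and 18.05 TPM in ponatinib replicates 1 to 3 (log2 difference 0.19, SE 0.086, limma adjusted p = 0.108). Polr1b stood at 52.7, 53.8 and 43.3 TPM with DMSO and 53.8, 58.8 and 60.7 TPM with ponatinib (log2 difference 0.21, SE 0.091, limma adjusted p = 0.0983). DMSO replicate 3 was the lowest library for both genes. The groups overlapped for Polr1a and were apart by a narrow margin for Polr1b (53.75 against 53.85 TPM). These values are of gene rows, and for Polr1a separate transcript rows held a mean of 70.8% of its TPM. With them added, the log2 difference of Polr1a was 0.16 (limma adjusted p = 0.174). Exons of Polr1a share 185 bases with an antisense gene, Gm26628, and the strand of the kit is not stated, so reads from the pair cannot be told apart there. In all, 19 of the 43 genes share exon bases with a gene on the opposite strand.

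Among the 6 nucleolar scaffold proteins and regulators, 4 rose: Ncl, Nolc1, Ddx21 and Mybbp1a. Ddx21, an RNA helicase that takes part in polymerase I transcription and RNA processing, stood at 253, 249.8 and 243 TPM with DMSO and 308, 312 and 327 TPM with ponatinib. The 3 libraries of each group lay close together and far from the other group (log2 difference 0.34, SE 0.045, limma adjusted p = 0.00129). Ncl, nucleolin, a major nucleolar RNA-binding protein, stood at 678, 695 and 668 TPM with DMSO and 777, 812 and 868 TPM with ponatinib (log2 difference 0.27, SE 0.052, limma adjusted p = 0.00587). The groups were apart for Ncl, but its call was lost after medians of ratios (log2 0.16, adjusted p = 0.0597). Nolc1, a chaperone of snoRNPs, stood at 137, 143 and 146 TPM with DMSO and 196, 162 and 193 TPM with ponatinib (log2 difference 0.36, SE 0.077, limma adjusted p = 0.00856). Its gene row was lowest in ponatinib replicate 2, where separate transcript rows held 53.8% of its TPM. They held 38.5% and 44.5% in ponatinib replicates 1 and 3. Mybbp1a, a regulator that binds Myb and acts on ribosomal gene transcription, rose by log2 0.20 (adjusted p = 0.0220). Its call was lost under medians of ratios (adjusted p = 0.248) and without DMSO replicate 1 or 2 or ponatinib replicate 2 or 3 (largest adjusted p = 0.0927). Npm1, nucleophosmin, had the highest level of all 43 genes and went the other way in its mean. It stood at 4212, 4028 and 4074 TPM with DMSO and 3687, 3904 and 4190.1 TPM with ponatinib, and the groups overlapped (log2 difference -0.066, SE 0.056, limma adjusted p = 0.378). Npm1 has close processed copies in the mouse genome, and the sources used here do not say how reads shared with them were counted. Gnl3, nucleostemin, a nucleolar GTPase, was not called with a log2 difference of 0.15 (adjusted p = 0.114), and was called without ponatinib replicate 1 (adjusted p = 0.0433). When its separate transcript rows were added, the log2 difference was 0.045 (adjusted p = 0.721).

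Of the 6 snoRNP proteins 4 were higher: the H/ACA proteins Dkc1, Nhp2 and Gar1, and the box C/D protein Nop58. Dkc1, the pseudouridine synthase of H/ACA particles, stood at 141, 131 and 133 TPM with DMSO and 169, 169 and 186 TPM with ponatinib. Its groups were well apart and its call held in all 16 other fits (log2 difference 0.36, SE 0.057, limma adjusted p = 0.00258). Nhp2, an H/ACA core protein, stood at 363, 376 and 323 TPM with DMSO and 392, 419.9 and 427 TPM with ponatinib (log2 difference 0.23, SE 0.066, limma adjusted p = 0.0290). DMSO replicate 3 was the lowest library for Nhp2, and the groups were apart. Its call was lost under medians of ratios (adjusted p = 0.287), and without DMSO replicate 1 or ponatinib replicate 2 or 3 (largest adjusted p = 0.106). Gar1, the H/ACA partner of Dkc1, rose by log2 0.18 (adjusted p = 0.0361), a call lost under medians of ratios (0.273) and without DMSO replicate 1 or 2 or ponatinib replicate 2 or 3 (largest 0.131). In the box C/D core, Nop58 stood at 232, 242 and 226 TPM with DMSO and 259, 281 and 281 TPM with ponatinib, groups apart (log2 difference 0.23, SE 0.053, limma adjusted p = 0.0118). The call for Nop58 was lost under medians of ratios (adjusted p = 0.152), without ponatinib replicate 2 (0.0566) or 3 (0.0520), and when its separate transcript rows were added (0.133). Fbl, the methyltransferase of these particles, stood at 491, 518 and 472 TPM with DMSO and 490.4, 546 and 538 TPM with ponatinib. Its groups overlapped (log2 difference 0.089, SE 0.059, limma adjusted p = 0.260), and the sign turned to -0.017 under medians of ratios. Nop56, the partner of Nop58 in the same particle, had a log2 difference of -0.066 with overlapping groups (adjusted p = 0.351).

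**Figure D3:**
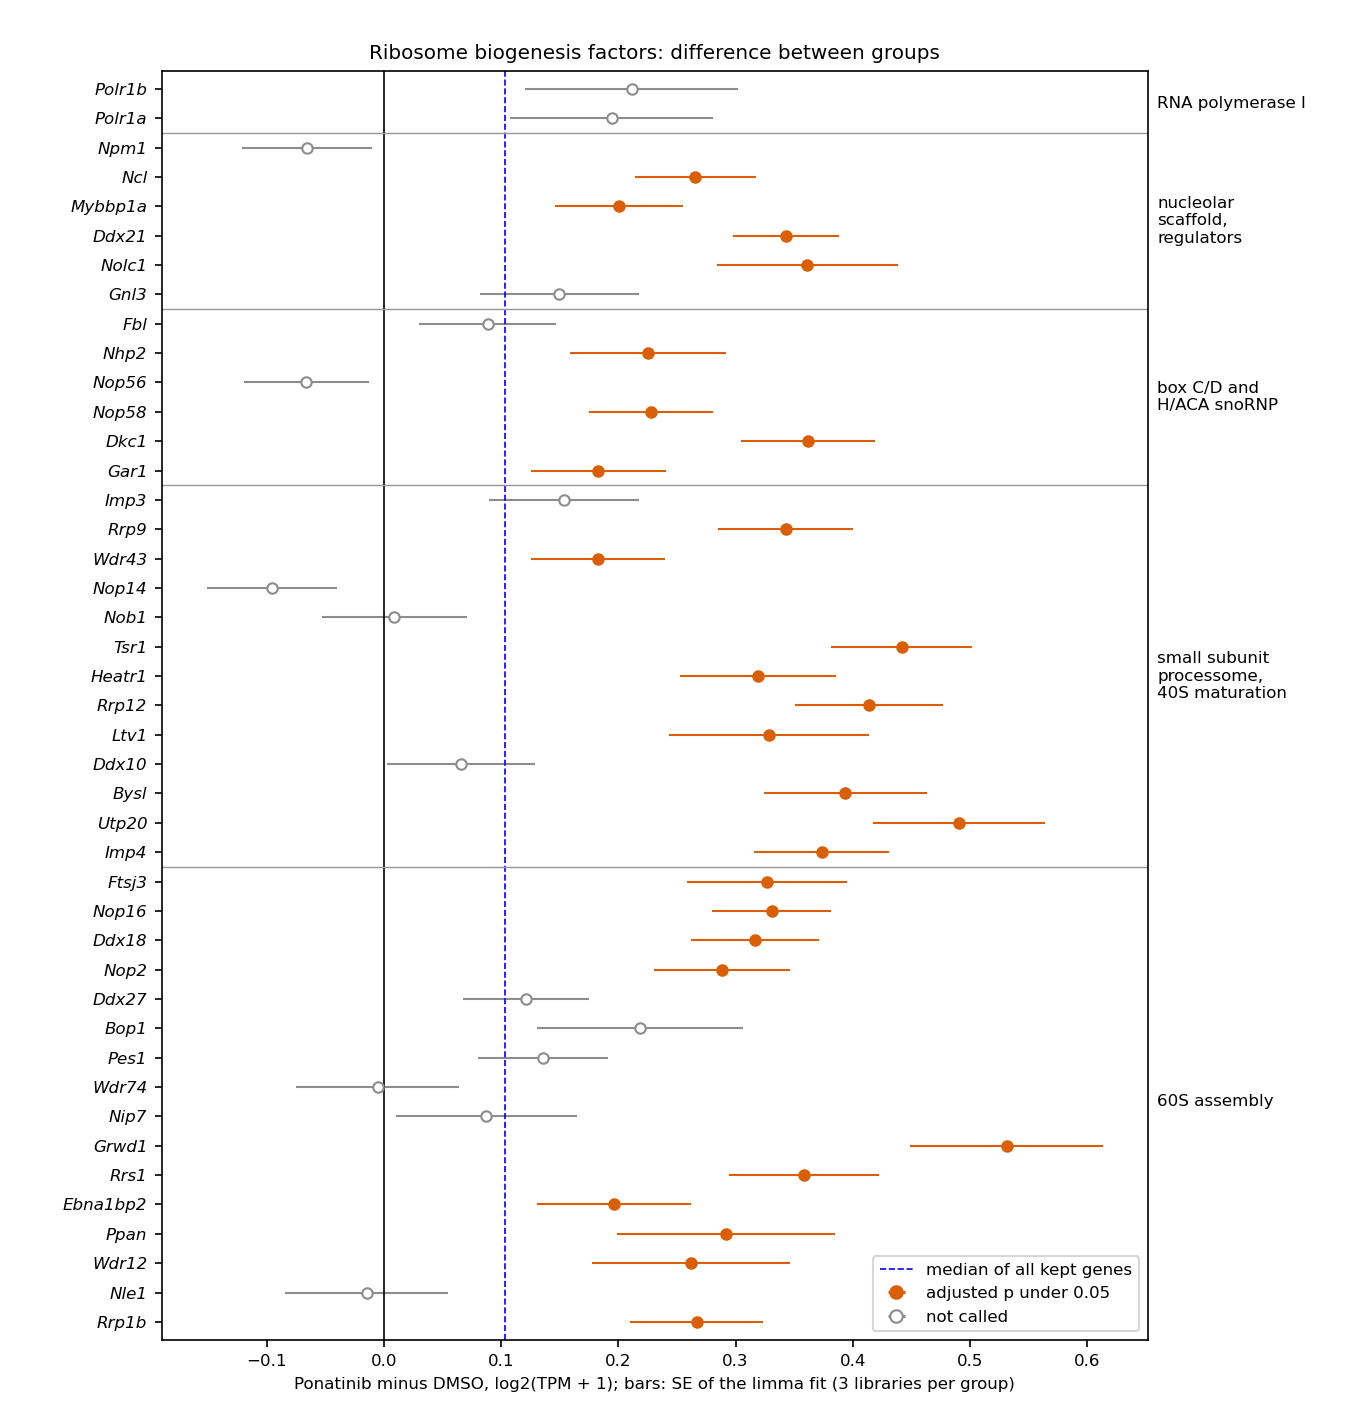
Log2 difference, ponatinib minus DMSO, for each of the 43 genes with the standard error of the limma fit as the bar (3 libraries per group); filled orange points are called, open grey points are not, and the dashed line is the median of all tested genes. Of the 43 points, 34 lie to the right of the dashed line at 0.10, and the 5 left of 0 (Npm1, Nop56, Nop14, Wdr74 and Nle1) are all open.

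Factors of the small subunit processome and of 40S maturation had the highest median of the 5 roles, log2 0.33, with 9 of 13 genes higher. Tsr1, which acts late in 40S maturation, stood at 56.2, 54.9 and 55.2 TPM with DMSO and 72.8, 72.8 and 81.6 TPM with ponatinib. Ponatinib replicate 3 was the highest and the DMSO libraries were nearly level (log2 difference 0.44, SE 0.060, limma adjusted p = 0.00147). Utp20, a large processome protein, stood at 24.00, 24.6 and 20.97 TPM with DMSO and 32.1, 33.3 and 33.4 TPM with ponatinib, where all 3 were nearly level (log2 difference 0.49, SE 0.074, limma adjusted p = 0.00212). Rrp12, a factor of late maturation and export, stood at 50.1, 51.98 and 46.3 TPM with DMSO and 63.4, 69.1 and 66.2 TPM with ponatinib (log2 difference 0.41, SE 0.063, limma adjusted p = 0.00224). DMSO replicate 3 was the lowest library for both Utp20 and Rrp12, and neither gene's groups overlapped. Of the other genes called, Bysl rose by log2 0.39, Imp4 by 0.37, Rrp9 by 0.34, Ltv1 by 0.33, Heatr1 by 0.32 and Wdr43 by 0.18. Imp4 and Rrp9 belong to the U3 particle or its close partners, Heatr1 and Wdr43 act at the first steps on the precursor, and Bysl and Ltv1 act on the maturing 40S particle. The call for Heatr1 was lost under medians of ratios (adjusted p = 0.0739). That for Ltv1 was lost without DMSO replicate 1 or 2 or ponatinib replicate 2 or 3 (largest adjusted p = 0.0748). That for Wdr43 was lost in the same 4 cases (largest adjusted p = 0.129), under medians of ratios (0.211) and when its transcript rows were added. Imp3, which pairs with Imp4 and had the highest level of the role, stood at 120.1, 125 and 136 TPM with DMSO and 137, 149.7 and 137 TPM with ponatinib. The groups of Imp3 were apart, but DMSO replicate 3 came within 1 TPM of the lowest ponatinib library and the gene was not called (log2 difference 0.15, SE 0.064, limma adjusted p = 0.0910). Without DMSO replicate 3 it was called (log2 0.20, adjusted p = 0.0131). Ddx10, a helicase, Nob1, the nuclease that makes the final cut of the small ribosomal RNA, and Nop14, a processome protein, were not called, at log2 0.066, 0.0089 and -0.10, each with overlapping groups. Exons of Tsr1 share 1240 bases with Srr on the other strand and those of Bysl share 361 bases with Ccnd3, so part of the reads there cannot be assigned without strand.

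The 60S assembly factors were the largest role, with 10 of 16 higher and a median log2 of 0.26. Nop16 stood at 122, 124 and 124 TPM with DMSO and 149, 153 and 164 TPM with ponatinib. The DMSO libraries of Nop16 were nearly level and all ponatinib libraries lay above them (log2 difference 0.33, SE 0.051, limma adjusted p = 0.00235). Grwd1, a WD-repeat protein of early 60S particles, had the greatest difference of the 43 genes, at 74.6, 73.9 and 61.9 TPM with DMSO and 95.3, 104 and 105 TPM with ponatinib. Here DMSO replicate 3 lay well below the other DMSO libraries (log2 difference 0.53, SE 0.082, limma adjusted p = 0.00239). Ddx18, a helicase, stood at 118, 117 and 125 TPM with DMSO and 143, 150.03 and 156 TPM with ponatinib (log2 difference 0.32, SE 0.054, limma adjusted p = 0.00369). Ftsj3, an RNA methyltransferase, had the highest gene row of the role. It stood at 128, 132 and 116 TPM with DMSO and 147, 161 and 164 TPM with ponatinib. The log2 difference was 0.33 (SE 0.068, limma adjusted p = 0.00760). Ebna1bp2 had a mean of 81.6 TPM in its gene row and a further 104 TPM in a separate transcript row. The groups of Ddx18 and of Ftsj3 were apart, and the call for Ftsj3 was lost under medians of ratios (adjusted p = 0.0634). Rrs1, which helps to bring in the small RNA of the large subunit, rose by log2 0.36, and Nop2, another RNA methyltransferase, by 0.29. Ppan rose by 0.29, Rrp1b by 0.27, Wdr12 by 0.26 and Ebna1bp2 by 0.20. The groups of Ppan overlapped, with DMSO replicate 3 at 82.3 TPM and ponatinib replicate 1 at 81.4 TPM. Calls for Nop2 and Rrp1b were lost under medians of ratios (adjusted p = 0.0570 and 0.0526). Those for Ppan (0.0769), Wdr12 (0.237) and Ebna1bp2 (0.191) were lost there too. Those 3 were also lost without DMSO replicate 1 or ponatinib replicate 2 or 3, Ppan and Ebna1bp2 without DMSO replicate 2, and Ebna1bp2 without ponatinib replicate 1. Their largest adjusted p on leaving out a library was 0.139 for Ppan, 0.130 for Wdr12 and 0.156 for Ebna1bp2. Wdr12 works with Bop1 and Pes1 in one complex, and these partners were not called, at log2 0.22 (adjusted p = 0.0815) and 0.14 (adjusted p = 0.0857). Bop1 was called without DMSO replicate 2 (adjusted p = 0.0434), and Pes1 without ponatinib replicate 1 (0.0357). The other genes not called were Ddx27 at log2 0.12, Nip7 at 0.087, Wdr74 at -0.0054 and Nle1 at -0.015. Of these, Ddx27 had groups that did not overlap, and ponatinib replicate 1 was below all DMSO libraries for Nip7, Wdr74 and Nle1.

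A wider list of 119 ribosome biogenesis factors, none of them among the 43, was tested in the same fit. Of the 113 with a mean of at least 10 TPM, 64 were higher, 4 lower and 45 not called, with a median log2 of 0.21, where 29.9% of all genes were higher and 9.88% lower. The 6 under the minimum were Taf1a, Ttf1, Tsr2, Mdn1, Ddx55 and Nmd3. Higher genes numbered 26 of 39 in the small subunit group, 25 of 41 in the 60S group, 6 of 11 around RNA polymerase I, 4 of 10 in snoRNP assembly and 3 of 12 in the exosome, the RNase complex that trims ribosomal RNA. The exosome's share, 25%, was below the 29.9% of all genes, and that of snoRNP assembly, 40%, was closest above it. The counts moved with the scale, and under medians of ratios 37 were higher and 11 lower, with 16.4% of all genes higher and 18% lower. In the small subunit group, Nol6 stood at 35.7 ± 2.31 TPM (SD, n = 3) with DMSO and 56.3 ± 1.49 TPM (SD, n = 3) with ponatinib (log2 difference 0.64, SE 0.063, limma adjusted p = 0.000457). Pwp2, another processome protein, stood at 31.8 ± 0.708 TPM (SD, n = 3) with DMSO and 46.6 ± 3.12 TPM (SD, n = 3) with ponatinib, and Riok2, a kinase of late 40S particles, at 27.6 ± 0.787 TPM (SD, n = 3) with DMSO and 39.1 ± 2.60 TPM (SD, n = 3) with ponatinib (adjusted p = 0.000930 and 0.00146). In the 60S group, Nol8 rose by log2 0.53, Dhx33 by 0.47 and Rrp8 by 0.35 (adjusted p = 0.000646, 0.00164 and 0.00218). Among snoRNP factors, Snu13 rose by 0.31, Znhit6 by 0.42 and Naf1 by 0.29, and the call for Naf1 was lost without DMSO replicate 1 (adjusted p = 0.0581) or ponatinib replicate 2 (0.0661) or 3 (0.0628). In the exosome, Exosc10 rose by 0.36, Exosc2 by 0.28 and Exosc4 by 0.27. The call for Exosc4 was lost without DMSO replicate 1 (adjusted p = 0.0626) or ponatinib replicate 2 (0.0794) or 3 (0.0702), and under medians of ratios (0.0635).

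The factors that work with RNA polymerase I did not all move one way. Ubtf, the upstream binding factor that opens ribosomal genes, stood at 128 ± 3.72 TPM (SD, n = 3) with DMSO and 171 ± 7.05 TPM (SD, n = 3) with ponatinib (log2 difference 0.41, SE 0.051, limma adjusted p = 0.00105). Rrn3, which joins the polymerase to its promoter, stood at 38.4 ± 4.29 TPM (SD, n = 3) with DMSO and 51.97 ± 2.76 TPM (SD, n = 3) with ponatinib (log2 difference 0.43, SE 0.086, limma adjusted p = 0.00639). Both genes were higher in all ponatinib libraries than in any DMSO library. Polr1c, a subunit shared with RNA polymerase III, stood at 117, 111 and 115 TPM with DMSO and 96.3, 101 and 100.5 TPM with ponatinib, and was lower in all 3 ponatinib libraries (log2 difference -0.20, SE 0.049, limma adjusted p = 0.0135). Its call was lost without DMSO replicate 1 (adjusted p = 0.0588). The other 3 lower genes of the wider list were picked out after their values were seen. They were Taf1d, a factor of the polymerase I promoter complex (log2 -0.41, adjusted p = 0.0468), Ruvbl2, an ATPase that helps to assemble snoRNPs (-0.22, 0.0456), and Ddx24, a helicase (-0.21, 0.0134). Taf1d was called in none of the fits without DMSO replicate 1, 2 or 3 or ponatinib replicate 1 or 2, with adjusted p up to 0.148. Ruvbl2 was not called without DMSO replicate 1 or without ponatinib replicate 1, 2 or 3, with adjusted p up to 0.137.

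The deposited table also lists 68 separate transcript rows for 27 of the 43 genes, beside the gene rows used above. None of the 68 belongs to the basic set of the annotation. Together they held 7.44% to 8.30% of the members' TPM, depending on the library, but the share was uneven. Transcript rows held more than the gene row in 3 genes: Imp4 with a mean share of 71.0%, Polr1a with 70.8% and Ebna1bp2 with 56.0%. For Nop58 the share was 49.5, 50.5 and 50.8% in DMSO replicates 1 to 3 and 45.5, 46.3 and 48.1% in ponatinib replicates 1 to 3. For Nop56 it was 28.8, 28.5 and 32.4% with DMSO and 24.4, 26.4 and 26.9% with ponatinib. For Heatr1 it was 13.04, 12.3 and 12.1% with DMSO and 5.75, 3.06 and 8.58% with ponatinib. In these 3 genes the share was lower in all ponatinib libraries than in any DMSO library. The same held at low shares for Ncl (2.99, 3.50 and 3.42% with DMSO, 2.54, 2.68 and 2.42% with ponatinib) and Ddx27, and the reverse for Tsr1, whose transcript rows are listed at 0 in all DMSO libraries. That makes 5 lower and 1 higher of 27 genes, where 6.52% of all 4109 genes with both kinds of row were apart lower and 5.33% higher. These shares come from estimated transcript levels and carry no test of their own. With transcript rows added to their gene, 24 of the 43 genes were higher, beside 27.3% of all genes, and the calls for Nop58 (log2 0.13, adjusted p = 0.133), Wdr43 (0.14, 0.109) and Ebna1bp2 (0.16, 0.0998) were lost.

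**Figure D4:**
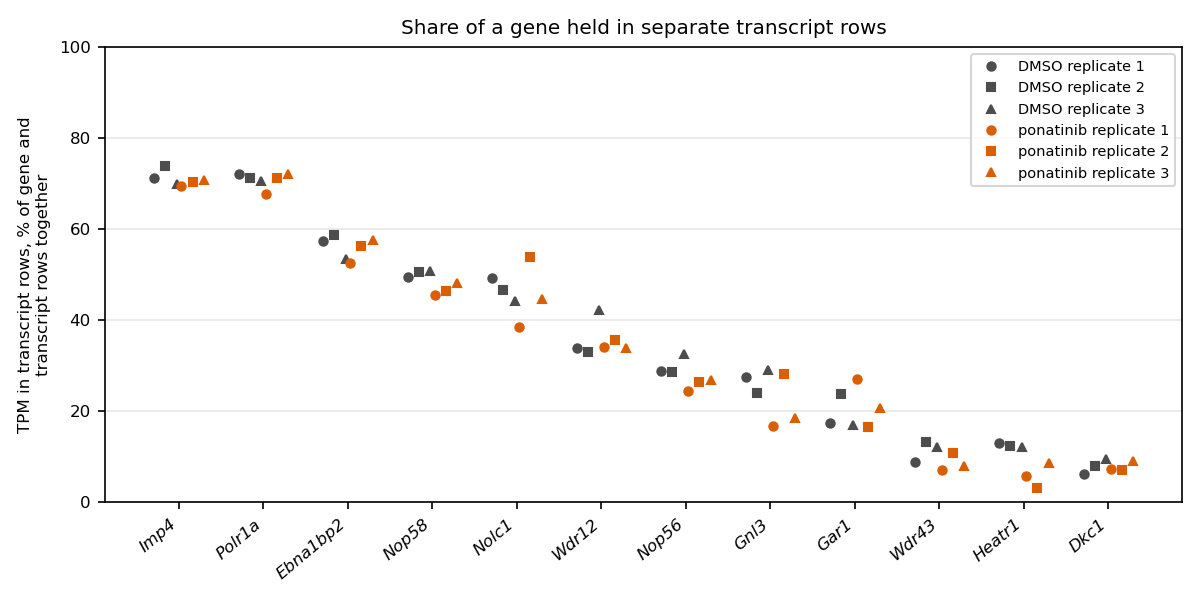
Percent of a gene's TPM that lies in separate transcript rows, out of gene and transcript rows together, for the 12 genes with the highest mean share; grey symbols are DMSO and orange symbols ponatinib libraries, with the shape giving the replicate. Imp4, Polr1a and Ebna1bp2 lie above 50%, and the orange symbols of Nop58, Nop56 and Heatr1 lie below the grey ones.

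Of the 68 rows, 31 had a mean of at least 1 TPM and were tested with all gene and transcript rows, of which 20.3% were called in either direction. None of the 31 was called with limma, and 4 had an unadjusted p under 0.05. The most abundant was Nop58-205, annotated as a target of nonsense-mediated decay, at 166, 180.3 and 169 TPM with DMSO and 148, 183 and 196 TPM with ponatinib, and the groups overlapped. Nolc1-202 stood at 129.7, 123 and 114 TPM with DMSO and 119, 184 and 154 TPM with ponatinib, also with overlap. Ebna1bp2-204 and Gar1-206 overlapped as well, at log2 0.14 and 0.33. Nop56-201 stood at 103, 102 and 124 TPM with DMSO and 75.2, 90.4 and 89.9 TPM with ponatinib. It was lower in all 3 ponatinib libraries (log2 -0.36, SE 0.10, limma adjusted p = 0.0580). Under medians of ratios it was called lower (adjusted p = 0.0142). Imp4-204, also annotated for decay, was higher in all 3 ponatinib libraries at log2 0.30 and was not called (adjusted p = 0.0827). Within the bounds of 8 of the 43 genes lie 23 annotated snoRNA genes, with 5 in Nop56 and 4 in Nop58. These short RNAs were not analysed here.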

How the data were processed

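Total RNA of 6 samples of mouse CD8+ T cells was sequenced after library preparation with a NEBNext Ultra II RNA kit, per the labels' protocols, which do not state strand. The authors deposited 1 table of TPM (each column sums to 1000000), although it is named as normalized counts. Salmon 1.5.1, fastp 0.19.5, DESeq2 1.22.1 and the build GRCm38 are listed, without roles, per the submitters' processing notes. Of 43072 deposited rows, 22095 are genes and 20977 are transcripts; annotation came from GENCODE mouse release M21 on GRCm38. TPM keep no depth, so precision rests on the spread between 3 libraries per group (median SE of a member's log2 difference 0.063).

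Gene rows with a mean of at least 10 TPM were kept. They were tested as log2(TPM + 1) with limma 3.58.1 (lmFit, then eBayes with trend set) under R 4.3.3, two-sided, with Benjamini-Hochberg adjustment over all kept rows and a threshold of 0.05. A second fit took gene and transcript rows with a mean of at least 1 TPM. The scripts were tested on simulated data. Alternatives were transcript rows added to genes, medians of ratios, quantile normalization, pseudocounts of 0.1 and 5, other minimums, no trend, a replicate block and each library left out. Figures used matplotlib 3.10.9 in Python 3.11.15, and promoter windows came from RefSeq.

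The members and lists were chosen with earlier results of these data known. All 43 members are named. Values per library are given in each role for the 3 genes with the smallest p and the one with the highest gene row. In each wider list the 3 genes with the smallest p are named. Of transcript rows, the 6 with the highest mean are named. One further marker list is not reported here.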

Additional observations from a re-analysis of the deposited data

How the results depend on the processing

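Of 974 repeats over 62 named genes, the 43 members among them, 862 kept the direction and the side of the threshold, 94 lost the call, 7 gained it and 11 changed sign. Sign changes were in members not called: under medians of ratios Fbl (log2 -0.017), Ddx10 (-0.038), Nob1 (-0.095) and Nip7 (-0.017), and under quantile normalization Fbl (-0.0045) and Nob1 (-0.067). Leaving out one library gave Nob1 -0.023 to 0.070, Wdr74 -0.041 to 0.064 and Nle1 -0.053 to 0.051. The calls gained were Nop56 and Nop14 lower under medians of ratios, Nop14 lower under quantile normalization, and Bop1, Imp3, Gnl3 and Pes1 higher, each without 1 library. Under medians of ratios 14 members were higher and 2 lower with a median of 0.12, and 37 other factors were higher and 11 lower. Under quantile normalization 21 members were higher and 1 lower (Nop14) with a median of 0.17 (0.028 for all genes), and 41 other factors were higher and 7 lower, where 19.7% of all genes were higher and 15.5% lower. Of called members, Gar1, Nhp2, Wdr43, Wdr12 and Ebna1bp2 lost the call under quantile normalization and with no filter, Mybbp1a under the former, Ppan under the latter, and Gar1, Wdr43 and Ebna1bp2 without the intensity trend. With a minimum mean of 50 TPM 36 other factors were higher, of 69 kept, where 34.3% of all genes were higher. Other factors lower numbered 2 with no filter, 2 with the minimum at 1 TPM and 2 without the intensity trend. Leaving out 1 library gave a members' median of 0.21 to 0.27, 37 to 79 other factors higher and 1 to 4 lower. The 37 were without ponatinib replicate 3, where 17.6% of all genes were higher. The 79 were without DMSO replicate 3, where 42.7% of all genes were higher. Of all genes, 7.17% to 10.5% were lower in these fits. Leaving out 1 library gave 0 to 1 called transcript rows: Nolc1-202 without ponatinib replicate 1 and Heatr1-206 without ponatinib replicate 3. One transcript row, Nop56-201, was called under medians of ratios, quantile normalization, a minimum mean of 10 TPM and the replicate block (1 in each). No pairing by replicate number was seen: same-numbered libraries correlated in their deviations at -0.098, 0.13 and 0.0094. Only replicate 2 correlated best with its own number. With 3 libraries per group these correlations cannot show that the libraries were unpaired. With the replicate block 27 members were higher and 0 lower, the same 27 as without it. In that fit 66 other factors were higher and 4 lower, where 29.6% of all genes were higher and 9.99% lower. Where calls changed the cause was not tested. Precision is limited by 3 libraries per group, by unknown depth and strand, and by transcript rows outside the gene rows.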
